A study of Arabidopsis thaliana with 6 samples.

Results

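The 200 transcripts described here were the ones with the strongest signal in the rosette among genes that carry no name beyond a locus code, the systematic identifier made of AT, the chromosome digit, G and 5 digits. They were chosen from 11933 probe sets that the platform annotation paired with exactly 1 such gene, by the highest mean log2 signal over the 6 arrays, leaving out AT1G22690. That gene would have ranked 320, so leaving it out changed no member. The array had 22746 probe sets after control probe sets were set aside, and the 200 members stood for 200 different genes. All 200 had an entry as a protein-coding gene in the RefSeq gene table, where the locus code was again the only symbol.

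The samples were rosettes of Arabidopsis thaliana plants 3 weeks old, grown without treatment. The mutant pmr5, in the Col-0 background, had 3 arrays, and the wild type Col-0 had 3 arrays. The pmr5 mutant was isolated for resistance to powdery mildew and is known for altered pectin in its cell walls. The labels call the 3 arrays of a genotype biological replicates without saying whether they came from separate sowings or harvests, so p-values measure the spread between these samples, which may be technical. Each value is an RMA signal in log2 units, on which 1 unit is a 2-fold change.

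A leaf cell spends much of its transcript pool on a few tasks. The cytosolic ribosome, built from a large and a small subunit, makes most of its proteins and needs each of its protein subunits in matched amounts. In the chloroplast, thylakoid membranes hold the photosystems and the cytochrome b6f complex, which pass electrons along and drive ATP synthesis, and a separate ribosome of bacterial type translates the genes kept in the plastid genome. Mitochondria supply ATP through the respiratory chain and take part in photorespiration. None of the listed photosystem and light-harvesting genes could enter the choice, since none had a locus-named probe set. Probe sets paired with exactly 1 gene numbered 2 for the 12 photosystem I loci and 3 for the 13 photosystem II loci. For the 20 light-harvesting loci they numbered 3, and the genes of all these probe sets carry symbols. Probe sets paired with several genes were not counted here.

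The level is what the rule used, so it is given as a description with no test. The members' mean signals ran from 14.44 down to 11.10 with a median of 11.72, while the highest signal of any probe set on an array was between 15.64 and 15.73. Signals of different probe sets also depend on the probes, so the order of the members is an order of signals and not of transcript amounts. Over all annotation classes 755 probe sets lay at or above the lowest member, and the members made up 12 of the 100 and 107 of the 500 probe sets with the highest means. Of the 555 others at that level, 411 had no gene in the annotation, 104 had a gene symbol and 40 were paired with several genes. The phrase most abundant therefore holds only among probe sets that the annotation pairs with exactly 1 locus-named gene. AT5G32450, AT3G23700 and AT3G06700 were the last inside the rule with means of 11.11, 11.11 and 11.10, and AT4G30010, AT5G12470 and AT5G14120 were the first outside with 11.10, 11.09 and 11.09.

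Most members were kept under other choices from the same 6 arrays, which is partly built in since the rule used these values. Choosing 200 by the mean of the pmr5 arrays alone shared 194 members, by the mean of the Col-0 arrays alone 192, and by each probe set's lowest value 190. A stricter choice, being among the 200 highest on each of the 6 arrays, held for 155 members, of which 57 were cytosolic ribosomal proteins. All 200 were above the array's shared lowest value of 2.19 on all 6 arrays, which held for 16186 of the 22746 probe sets, so this floor touched none of them.

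The tissue label was read against genes outside the members. Among probe sets paired with exactly 1 gene, the 2 of photosystem I subunits had means of 14.18 and 14.73. The 3 of photosystem II subunits had 13.52 to 13.77, and the 3 of light-harvesting proteins 10.90 to 14.66. Of 4 root genes 2 had a probe set paired with exactly 1 gene. AT1G12560 never exceeded the floor of the arrays, and AT3G09260 had 4.76, 3.28 and 5.86 in pmr5 against 4.08, 3.43 and 5.20 in Col-0. Of 4 guard cell genes 2 had a probe set paired with exactly 1 gene, and neither is a member. AT1G22690 had 10.85, 10.79 and 10.66 in pmr5 against 10.37, 10.17 and 10.02 in Col-0. AT3G24140, the guard cell regulator FAMA, was 0.16 higher in pmr5. In both cases the genotypes did not overlap, which held with pmr5 higher for 3.35% of the 16186 probe sets above the floor. Neither passed an adjusted limma p of 0.05. Whether a guard cell share moved with any member's difference was not tested. In whole rosettes fewer cells of a type and less RNA per cell cannot be told apart.

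The largest group by known function belonged to protein synthesis. Cytosolic ribosomal proteins numbered 61, or 30.5% of the 200, with 39 of the large subunit and 22 of the small subunit. They held 5 of the 20 highest positions, 15 of the first 50 and 38 of the first 100. Photosynthesis and the thylakoid accounted for 16 members, the plastid ribosome and plastid translation for 10, and the mitochondrial respiratory chain and its carriers for 8. A further 62 had other roles, and 43 were given no role. Roles are background knowledge of each locus and are not annotated in the files. The members were spread over the 5 nuclear chromosomes much like all locus-named probe sets, from 13.0% on chromosome 4 to 25.5% on chromosome 1, against 14.4% and 26.0% of the locus-named probe sets there. Just 2 pairs of members were next neighbours on a chromosome, the GDSL lipases AT1G29660 and AT1G29670 and the acidic ribosomal proteins AT2G27710 and AT2G27720, which are named here because they form such pairs.

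At the top stood AT2G25510, a gene given no role here, with 14.47, 14.50 and 14.47 in pmr5 and 14.13, 14.43 and 14.66 in Col-0. The pmr5 arrays lay close together inside the spread of the Col-0 arrays. AT2G26500, which encodes the small subunit PetM of the cytochrome b6f complex, had 14.36, 14.34 and 14.34 in pmr5 and 14.50, 14.35 and 14.48 in Col-0. All of its 6 values fell within 0.16. AT1G51400, a small protein of photosystem II, had 14.58, 14.13 and 14.66 in pmr5 and 14.38, 14.31 and 14.20 in Col-0. Here pmr5 replicate 2 was the lowest array and the other two pmr5 arrays were the highest. AT2G41090, a calmodulin-like calcium-binding protein, had 14.16, 14.46 and 14.10 in pmr5 and 14.04, 14.30 and 14.50 in Col-0, with both genotypes covering the same range.

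**Figure D1:**
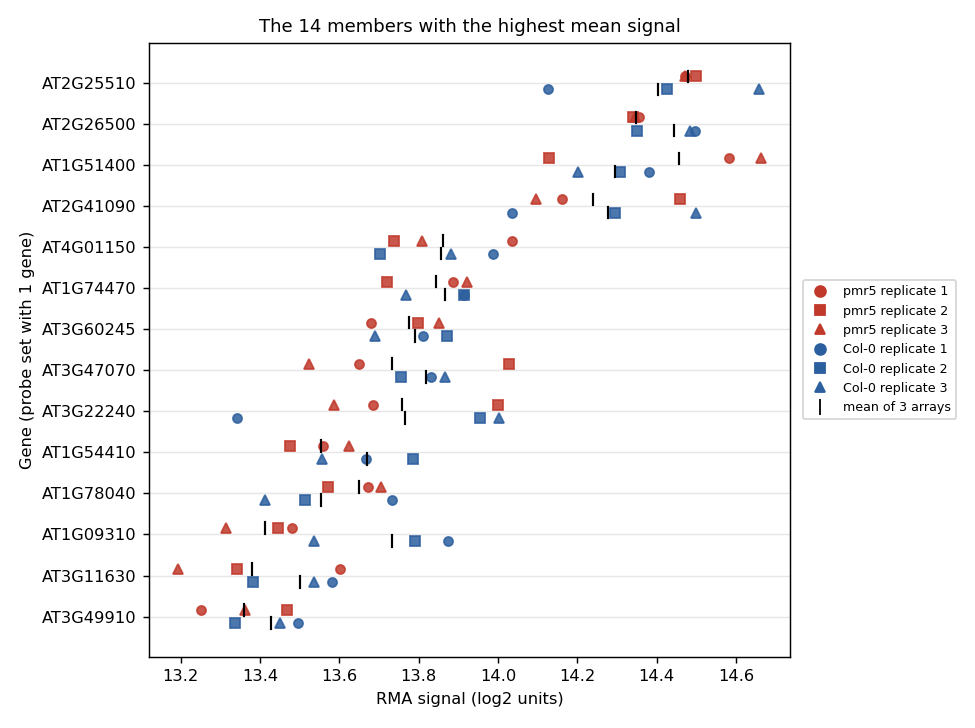
RMA signal (log2 units, x axis) of the 14 members with the highest mean, 1 gene per row, with pmr5 arrays in red above Col-0 arrays in blue, a marker shape for each replicate and a black bar at the mean of 3 arrays. The genotypes overlap in 13 of the 14 rows, and AT1G09310 has its 3 pmr5 arrays below its 3 Col-0 arrays.

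The next positions mixed thylakoid, ribosome and other genes. AT4G01150, the protein CURT1A that bends thylakoid membranes at the margins of grana, averaged 13.86 ± 0.16 in pmr5 and 13.86 ± 0.14 in Col-0 (SD, n = 3 each). AT1G74470, the geranylgeranyl reductase that makes the phytol tail of chlorophyll, averaged 13.84 ± 0.11 in pmr5 and 13.87 ± 0.08 in Col-0. For both genes the difference between genotypes was smaller than the spread between replicates. AT3G47070, a soluble thylakoid phosphoprotein, had its highest value of 14.03 in pmr5 replicate 2 and its lowest of 13.52 in pmr5 replicate 3. AT1G78040, of the Ole e 1 family first known from pollen allergens, averaged 13.65 ± 0.07 in pmr5 and 13.55 ± 0.16 in Col-0, and the dehydrin AT1G54410, a small protective protein linked to drought and cold, 13.55 ± 0.07 in pmr5 and 13.67 ± 0.11 in Col-0. AT3G11630, the chloroplast 2-Cys peroxiredoxin A that reduces hydrogen peroxide, averaged 13.38 ± 0.21 in pmr5 and 13.50 ± 0.10 in Col-0. Among the 20 highest members 2 were given no role, AT2G25510 and AT3G22240, and the second of these had 13.69, 14.00 and 13.59 in pmr5 and 13.34, 13.96 and 14.00 in Col-0.

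No member differed between pmr5 and Col-0 by limma at an adjusted p under 0.05, and neither did any of the 22746 probe sets (0%). At an unadjusted p under 0.05 limma called 10 members, 6 higher and 4 lower in pmr5, or 5.0% against 2.60% of all probe sets (1.37% higher and 1.23% lower). The share was 3.63% of the 16186 probe sets that stayed above the floor and 4.86% of the 555 other probe sets at or above the lowest member. The genotypes did not overlap for 11 members, 7 higher and 4 lower in pmr5, or 5.5% against 6.44% of the 16186 (3.35% higher and 3.09% lower) and 6.49% of the 555 (2.16% higher and 4.32% lower). Both total shares of members were near those of other probe sets of the same signal. The median difference over the members was 0.02 with 111 above 0 and 89 below, beside a median of 0 over all probe sets. It was -0.02, with 83 above 0 and 117 below, when array medians were centred. The difference was under 0.1 in size for 111 members, under 0.2 for 171 and under 0.5 for 196, and no member reached 1.

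The members as a whole showed no difference in level larger than the replicate spread. Their median signal was 11.73, 11.77 and 11.74 on the pmr5 arrays and 11.80, 11.73 and 11.71 on the Col-0 arrays. The means were 11.75 ± 0.02 in pmr5 and 11.75 ± 0.05 in Col-0 (SD, n = 3 each), a difference of 0.0031 (exact permutation test, 2-sided, p = 0.9). With 3 arrays against 3 the smallest p this test can give is 0.1, so it could not have passed 0.05. The members were also picked for their level, on values that RMA had normalized between arrays.

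The 61 cytosolic ribosomal proteins had means from 13.78 down to 11.10. The highest of the large subunit were AT3G60245 (RPL37a), AT3G49910 (RPL26), AT3G62870 (RPL7a), AT1G52300 (RPL37) and AT1G01100 (the acidic stalk protein RPP1), with means of 13.78, 13.39, 13.03, 13.01 and 12.89. Members of the small subunit included AT5G15200 (RPS9), AT4G39200 (RPS25), AT3G02080 (RPS19) and AT1G15930 (RPS12), with 12.81, 12.24, 12.20 and 12.10. RPL37a had 13.68, 13.80 and 13.85 in pmr5 and 13.81, 13.87 and 13.69 in Col-0, and the genotypes overlapped. RPS9 had 12.88, 12.68 and 13.05 in pmr5 and 12.86, 12.82 and 12.56 in Col-0. Its genotypes overlapped too, and its lowest array was Col-0 replicate 3. The list of ribosomal loci held 208 genes, of which 116 had a locus-named probe set, and 55 of those were not members, with means from 11.08 down to 2.19 and a median of 9.36.

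Of the 61, 41 were higher and 20 lower in pmr5, with a median difference of 0.05, and none passed the test. The genotypes did not overlap for 2 of the 61, or 3.28%, against 6.44% of the 16186 probe sets above the floor. These were AT3G09200 and AT5G27700, both higher in pmr5 by value. AT3G09200, the central stalk protein RPP0, had 12.21, 12.04 and 12.24 in pmr5 against 11.99, 11.93 and 11.83 in Col-0, and AT5G27700 (RPS21) had 12.07, 12.24 and 12.17 in pmr5 against 12.03, 12.01 and 11.86 in Col-0. The neighbouring P2-type stalk protein genes AT2G27710 and AT2G27720 had differences of 0.11 and 0.19.

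The direction of the ribosomal group changed when 1 array was left out. Relative to each gene's mean over the 6 arrays, the median deviation of the 61 was -0.02, 0.06 and 0.06 on the pmr5 arrays and 0.06, -0.02 and -0.18 on the Col-0 arrays. In Col-0 replicate 3, 52 of the 61 were below their own mean and 36 had their lowest value. Without that array the median difference was -0.02, with 27 higher and 34 lower in pmr5. Without Col-0 replicate 1 it was 0.11, with 52 higher and 9 lower, and with array medians centred it was 0.01, with 33 higher and 28 lower. The 55 ribosomal probe sets that are not members had a median deviation of -0.13 on Col-0 replicate 3, and 19 of them had their lowest value there.

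**Figure D2:**
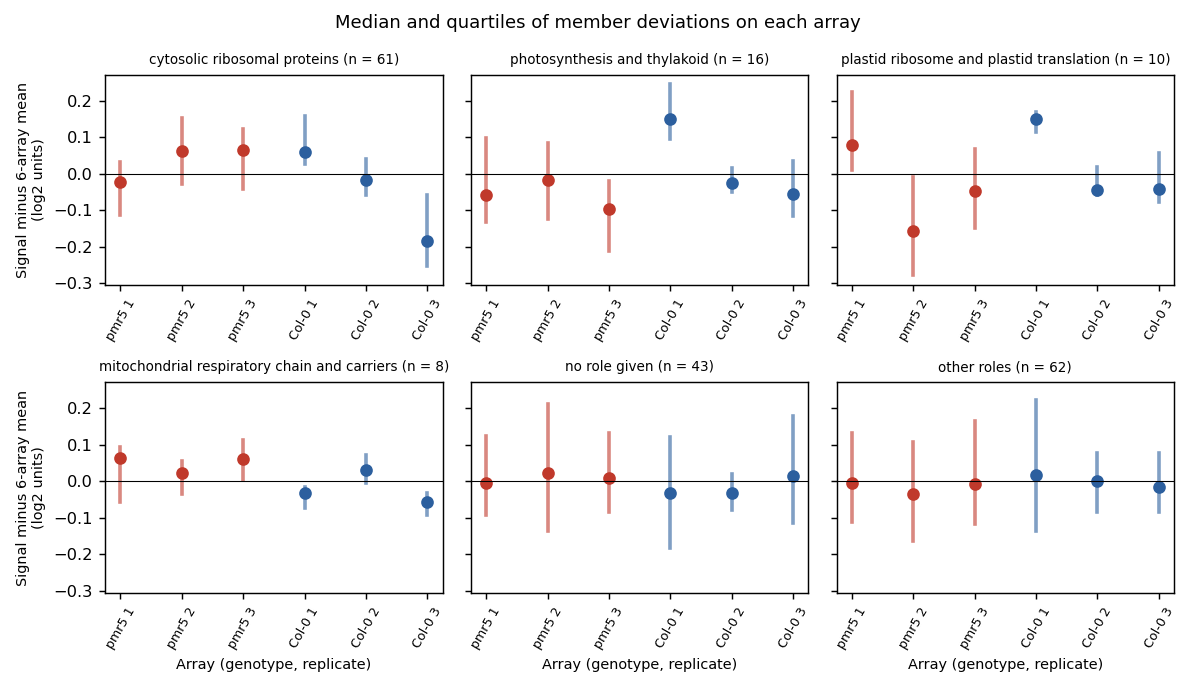
Deviation of each member from its mean over 6 arrays (log2 units, y axis) on each array (x axis, pmr5 in red left of Col-0 in blue) for 6 groups of members, with points at the median and bars from the lower to the upper quartile. The ribosomal median is -0.18 on Col-0 replicate 3, the photosynthesis median is 0.15 on Col-0 replicate 1, and the plastid ribosome median is -0.16 on pmr5 replicate 2.

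One sign of RNA quality differed between the arrays too. The newer control probe sets gave a signal difference between the 3' and 5' ends of control transcripts of 0.95, 1.11 and 0.84 on the pmr5 arrays and 0.94, 0.90 and 1.10 on the Col-0 arrays. Col-0 replicate 3 and pmr5 replicate 2 had the largest values. The older control probe sets gave 3.09, 3.29 and 3.09 on the pmr5 arrays and 3.30, 3.19 and 3.18 on the Col-0 arrays, with a different order of the Col-0 arrays. The part of RNA quality in any result was not tested.

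The 16 photosynthesis and thylakoid members had a median difference of -0.09, with 5 higher and 11 lower in pmr5 and none past the test. Besides PetM, CURT1A and the photosystem II protein above, the group held AT5G08050 and AT1G74730, the RIQ proteins that organise grana and light-harvesting complexes. They averaged 12.91 ± 0.22 and 12.71 ± 0.17 in pmr5 and 13.02 ± 0.16 and 12.83 ± 0.20 in Col-0 (SD, n = 3 each). The helpers of Rubisco assembly, AT3G47650 (BSD2) and AT5G28500 (a Rubisco accumulation factor), had differences of -0.14 ± 0.11 and -0.15 ± 0.11 (SE). On Col-0 replicate 1 the group's median deviation was 0.15, and 9 of the 16 had their highest value there. Without that array the median difference was -0.01, with 7 higher and 9 lower, and without pmr5 replicate 3 it was -0.05. Other settings made it larger in size: -0.13 with array medians centred (2 higher and 14 lower) and -0.13 without Col-0 replicate 2 (5 and 11).

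The 10 plastid translation members had a median difference of -0.09, with 3 higher and 7 lower in pmr5. The plastid ribosomal proteins with the highest means were AT2G43030 (L3), AT3G54210 (L17), AT4G01310 (L5), AT5G65220 (L29) and AT1G29070 (L34), with differences of 0.06, -0.06, -0.16, -0.10 and -0.11. L3 had 13.24, 13.17 and 13.30 in pmr5 and 13.32, 13.14 and 13.06 in Col-0, and the genotypes overlapped. The group's median deviation was 0.08, -0.16 and -0.05 on the pmr5 arrays and 0.15, -0.05 and -0.04 on the Col-0 arrays. Without pmr5 replicate 2 the median difference was 0.0077 with 5 higher and 5 lower, without Col-0 replicate 1 it was -0.01, and without pmr5 replicate 3 it was -0.06. It was -0.13 with array medians centred (2 higher and 8 lower) and -0.11 without pmr5 replicate 1 (2 and 8).

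The mitochondrial members had the lowest spread of the 6 groups, with a median within-genotype SD of 0.0928, against 0.146 for the ribosomal group, 0.161 for photosynthesis, 0.174 for plastid translation, 0.18 for other roles and 0.207 for members given no role. The within-genotype SD is the residual SD of a gene's 6 values around the 2 genotype means. The 8 mitochondrial genes included AT3G08610 and AT5G47570 (subunits of complex I), AT3G10860 (the QCR8 subunit of complex III), AT4G37830 (the COX6a subunit of complex IV) and AT5G19760 (a carrier of dicarboxylates and tricarboxylates). Pmr5 was higher for 7 and lower for 1, with a median difference of 0.07 and a largest difference of 0.09. The median was 0.04 without pmr5 replicate 1 (6 higher and 2 lower) and 0.04 without Col-0 replicate 1 (5 and 3), and 0.03 with array medians centred (5 and 3). The 3 members of photorespiration, which salvages the product of Rubisco's reaction with oxygen, had lower means in pmr5 without passing the test: the glycine cleavage proteins AT1G32470 (H) and AT1G11860 (T) with -0.11 and -0.07 and the glycerate kinase AT1G80380 with -0.10. Each overlapped between genotypes. AT1G11860 had its lowest value, 12.20, on pmr5 replicate 2, and AT1G32470 its highest, 12.75, on Col-0 replicate 1. The whole list, which also covered catalases and ammonia refixation, had 5 probe sets paired with exactly 1 gene. Of these, members included, 2 were higher and 3 lower in pmr5. Differences of these genes with 1 array left out are not given here.

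The members were about as steady between arrays as other probe sets of the same signal. The median within-genotype SD over the members was 0.163, with quartiles of 0.108 and 0.215, against 0.226 over the 16186 probe sets above the lowest value and 0.156 over the 555 other probe sets of the same signal. It was 0.157 for the 50 highest members and 0.166 for the 50 lowest. The SD was under 0.1 for 41 members, under 0.2 for 135 and under 0.5 for 189. Within pmr5 the median SD was 0.143 and within Col-0 it was 0.148. Over the 6 arrays the median range was 0.42, and 15 members (7.5%) had a range of at least 1, against 23.0% of the probe sets above the lowest value and 10.5% of the other probe sets of the same signal. Leaving out an array cannot raise the count of 15. It was 10 without pmr5 replicate 2 and 13 to 15 without each of the other arrays. The shares of the other probe sets were not recomputed in this way.

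**Figure D3:**
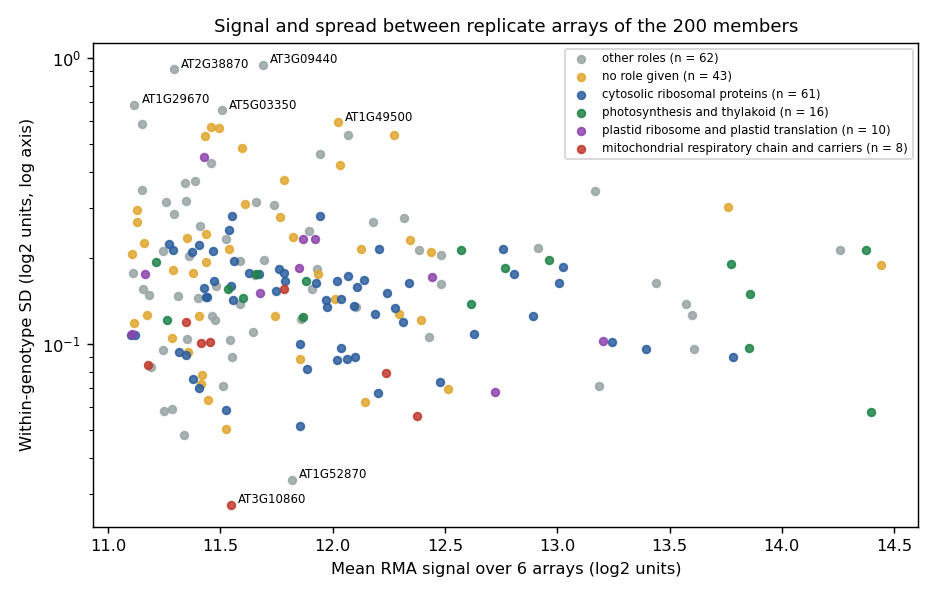
Within-genotype SD (log2 units, log axis) against the mean RMA signal over 6 arrays (log2 units) for the 200 members, 1 point per gene, coloured by group. The 8 mitochondrial genes lie at or below 0.155, the 61 ribosomal genes lie between 0.0518 and 0.281, and the 5 most variable members are named together with the 2 steadiest.

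AT3G10860, the complex III subunit, was the steadiest member, with an SD of 0.027 and values of 11.59, 11.58 and 11.57 in pmr5 and 11.52, 11.55 and 11.47 in Col-0. The 6 values spanned 0.11, and the pmr5 arrays were all above the Col-0 arrays. AT1G52870, a membrane protein of the Mpv17 and PMP22 family, had 11.77, 11.72 and 11.78 in pmr5 and 11.92, 11.86 and 11.86 in Col-0 (SD 0.034). AT5G58330, the chloroplast NADP-malate dehydrogenase that exports reducing power from the stroma, had 11.42, 11.31 and 11.29 in pmr5 and 11.35, 11.34 and 11.33 in Col-0 (SD 0.048). The next 3 were AT5G39570 with an SD of 0.050, AT1G08360 (RPL10a) with 0.052 and AT3G08610 with 0.056. Of the 20 steadiest members 5 were ribosomal and 5 were given no role, while the 20 most variable held 0 ribosomal and 8 with no role given.

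The most variable member was AT3G09440, a cytosolic HSP70 chaperone that refolds proteins under heat and other stress. It had 10.48, 13.01 and 11.15 in pmr5 and 11.70, 11.64 and 12.14 in Col-0. The lowest and the highest array were both pmr5, replicates 1 and 2, and differed 5.79-fold. AT2G38870, a protease inhibitor of the pathogenesis-related PR-6 type, had 10.97, 11.72 and 11.74 in pmr5 and 10.01, 10.91 and 12.41 in Col-0. Here both extremes were Col-0 arrays, replicates 1 and 3, and differed 5.28-fold. The lectin AT5G03350, a protein with a legume lectin domain, had 11.24, 11.52 and 11.62 in pmr5 and 10.56, 11.78 and 12.32 in Col-0. Its order of Col-0 arrays was that of the protease inhibitor, lowest in replicate 1 and highest in replicate 3.

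Other variable members were low on pmr5 replicate 2. AT1G29670, a GDSL lipase, had 11.62, 10.09 and 11.48 in pmr5 and 11.52, 11.38 and 10.63 in Col-0. AT5G44020, an acid phosphatase of class B related to vegetative storage proteins, had 11.31, 10.24 and 10.89 in pmr5 and 12.08, 11.57 and 10.82 in Col-0. Both were lowest on pmr5 replicate 2, and of the Col-0 arrays replicate 3 was lowest. These are the 2 arrays with the largest 3' to 5' difference of the newer control probe sets. By the older control probe sets Col-0 replicate 3 had the smallest difference of the Col-0 arrays. Other variable members were highest on these arrays: AT3G09440 with 13.01 on pmr5 replicate 2, and AT2G38870 and AT5G03350 with 12.41 and 12.32 on Col-0 replicate 3. Whether RNA quality had a part in these values was not tested. AT2G46220 and AT5G16030, given no role, had 10.63 and 10.86 on pmr5 replicate 2, their lowest values, and 12.05 and 12.25 on pmr5 replicate 3, their highest. AT1G49500, also given no role, had 12.20, 11.72 and 12.73 in pmr5 and 11.09, 11.97 and 12.42 in Col-0. Of the 20 most variable members 8 had their lowest value on pmr5 replicate 2 and 8 their highest on pmr5 replicate 3.

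**Figure D4:**
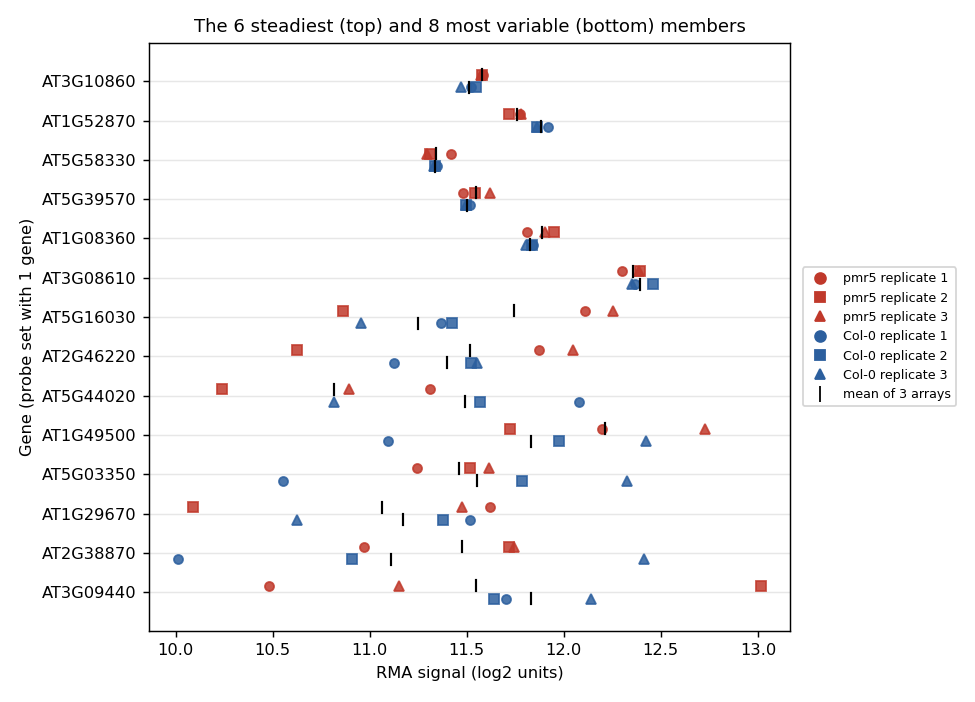
RMA signal (log2 units, x axis) of the 6 steadiest members (upper rows) and the 8 most variable members (lower rows), with pmr5 arrays in red above Col-0 arrays in blue, a marker shape for each replicate and a black bar at the mean of 3 arrays. The values of AT3G10860 span 0.11 and those of AT3G09440 span 2.53.

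Small families were mostly of mixed steadiness. The 4 members for defence peptides, a lectin and a protease inhibitor had SDs from 0.134 for AT3G05730 to 0.912 for AT2G38870, with the thionin AT1G66100 at 0.276. Of the 5 calcium-binding EF-hand proteins AT4G27280 had an SD of 0.539, with 11.74, 12.12 and 12.79 in pmr5 and 11.67, 11.54 and 12.54 in Col-0, both genotypes highest in replicate 3. The 3 GDSL lipases AT1G29660, AT3G16370 and AT1G29670 had differences of -0.38, -0.19 and -0.11, each overlapping between genotypes. AT3G16370 had its highest value, 12.26, on Col-0 replicate 1, and AT1G29670 its lowest, 10.09, on pmr5 replicate 2. The lipase differences with 1 array left out are not given here. The 3 late embryogenesis abundant proteins, which protect cells during drying, had SDs of 0.0962 (AT1G54410), 0.364 (AT2G23120) and 0.0828 (AT2G44060). AT2G45180, a hybrid proline-rich protein of the lipid transfer class, averaged 13.16 ± 0.31 in pmr5 and 13.18 ± 0.37 in Col-0 (SD, n = 3 each).

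The members held 3 translation factors beside the ribosomal proteins. AT5G54940, a SUI1-type factor related to eIF1 that helps find the start codon, averaged 13.02 ± 0.28 in pmr5 and 12.81 ± 0.13 in Col-0 (SD, n = 3 each). AT5G19510, the beta subunit of the elongation factor complex eEF1B, averaged 12.04 ± 0.18 in pmr5 and 11.83 ± 0.18 in Col-0. AT5G35680, an eIF1A-type factor, averaged 11.13 ± 0.09 in pmr5 and 11.18 ± 0.20 in Col-0. For all 3 the genotypes overlapped. The universal stress proteins AT2G47710 and AT3G11930 had differences of 0.08 and 0.18, and the plastid RNA-binding proteins AT2G37220 and AT1G60000, which bind chloroplast transcripts, -0.09 and -0.12. The redox proteins differed little by genotype: AT5G18600, a glutaredoxin, by 0.11, AT1G07700, a thioredoxin-like protein, by -0.08, and AT2G04700, the catalytic subunit of ferredoxin-thioredoxin reductase, by -0.09. AT2G10940, a lipid transfer-like protein, averaged 11.75 ± 0.14 in pmr5 and 12.04 ± 0.32 in Col-0. Of the 43 members given no role, 2 had no overlap between genotypes, against 6.44% of the 16186 probe sets above the floor. The 43 had differences from -0.33 to 0.75, with 27 higher and 16 lower in pmr5 and a median of 0.03. With array medians centred the median was -0.0055, with 20 higher and 23 lower. Leaving out Col-0 replicate 3 gave 0.07, and leaving out pmr5 replicate 3 gave 0.06.

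The smallest p among the members was that of AT3G05730, a defensin-like gene that encodes a small cysteine-rich secreted peptide. It had 12.43, 12.36 and 12.46 in pmr5 against 11.92, 11.87 and 11.58 in Col-0. All pmr5 arrays were above all Col-0 arrays, by 0.63 ± 0.10 on average (SE), or 1.55-fold, with an unadjusted limma p of 0.00277 and an adjusted p of 1 over all probe sets. Over the alternative settings its adjusted p ranged from 0.436 to 1.

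AT4G05070, given no role, had the largest difference of all members. It had 11.72, 11.68 and 12.04 in pmr5 against 11.28, 10.75 and 11.15 in Col-0, a difference of 0.75 ± 0.19 (SE), or 1.68-fold, without overlap. In the limma fit across all probe sets its p was 0.0134 unadjusted and 1 adjusted. Just 3 more members differed by 0.5 or more: AT5G44020 with -0.68 ± 0.46, AT3G05730 above, and AT1G73600, related to the phosphoethanolamine methyltransferases that make phosphocholine, with -0.60 ± 0.36 (SE). AT1G73600 is named for the size of its difference, after its values were seen. In AT5G44020 and AT1G73600 the genotypes overlapped.

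The other members of small p differed by 0.35 or less in size. AT1G52870 differed by -0.12 ± 0.026 and AT4G16980, given no role, by -0.21 ± 0.05, with unadjusted limma p of 0.00729 and 0.00963. AT3G09200 differed by 0.25 ± 0.08 and AT3G10860 by 0.07 ± 0.02, with p of 0.0266 and 0.0322. AT1G09310, a protein of the DUF538 family, had 13.48, 13.45 and 13.32 in pmr5 against 13.87, 13.79 and 13.54 in Col-0, a difference of -0.32 ± 0.11. AT1G44000, related to the STAY-GREEN proteins that act in chlorophyll breakdown, had 11.70, 11.94 and 11.57 in pmr5 against 12.12, 11.96 and 12.18 in Col-0, a difference of -0.35 ± 0.12. The adjusted limma p was 1 for each of these 6 genes. The other 3 members without overlap were AT5G27700 above, AT1G23390 (a kelch-repeat F-box protein) with 0.34 and AT4G26710 (the small e subunit of the vacuolar proton pump) with 0.13, the last 2 named because their genotypes did not overlap.

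**Figure D5:**
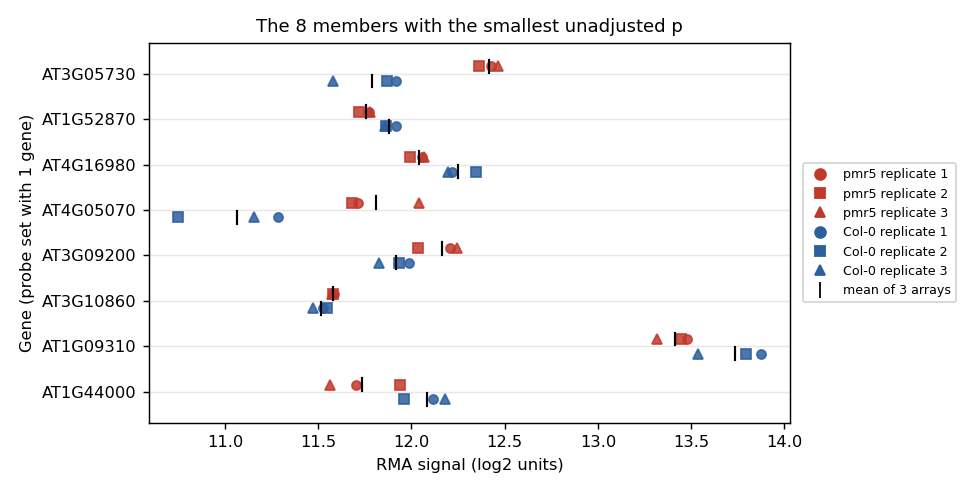
RMA signal (log2 units, x axis) of the 8 members with the smallest unadjusted limma p, with pmr5 arrays in red above Col-0 arrays in blue, a marker shape for each replicate and a black bar at the mean of 3 arrays. In each of the 8 rows the genotypes do not overlap, 4 with pmr5 above and 4 with pmr5 below, and none passed an adjusted p of 0.05. The 8 were picked by p on these same arrays, so their separation adds no support. Over the 16186 probe sets above the floor 6.44% were without overlap.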

How the data were processed

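RNA of rosettes was measured on 1-colour Affymetrix arrays. The authors deposited a log2 signal for every probe set. The submitters' processing notes name RMA and the affy package, and give no version of either. The 64 control probe sets were left out, and no further normalization was applied. Differences, as pmr5 minus Col-0, came from limma 3.58.1 (lmFit and eBayes) in R 4.3.3 over all 22746 probe sets, with Benjamini-Hochberg adjustment and a threshold of 0.05. The fit was tested on simulated data with changes larger than any member's difference, so that test does not cover differences of the size reported here. The number of arrays limits the precision.

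Genes came from the platform annotation, which paired 13513 probe sets with 1 gene. Locus codes were matched to the RefSeq table of assembly TAIR10.1 for names and neighbours only. The members and lists were chosen with earlier results of these data known. Roles came from lists of loci for 70 members. For 87 more they were set after the members were seen, from background knowledge, since the reference tables gave no descriptions, and 43 were given none. The text names the 15 highest members, 3 on each side of the limit, the 6 steadiest and 8 most variable, the 8 with the smallest p, and up to 5 of the highest in each role, though not every gene this last part covers is named. One gene is not reported here. Promoters and proteins were not analysed here. Over the probe sets above the floor, same-numbered arrays of the 2 genotypes had correlations of deviations of 0.118, -0.282 and 0.194. Arrays of different numbers had -0.326 to 0.291. Over the members the same-numbered arrays had 0.328, -0.338 and 0.064, and those of different numbers -0.501 to 0.336. The numbers were therefore not used as pairs in the main fit. Alternatives were a replicate block, each array left out, quantile normalization, centred array medians, limma's intensity trend together with its robust prior, only probe sets above the floor, and other choices of members.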

Additional observations from a re-analysis of the deposited data

How the results depend on the processing

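No member passed an adjusted limma p of 0.05, and the 8 members with the smallest p kept their direction, in the fits with the replicate block, each array left out, quantile normalization, centred array medians, the intensity trend, and only probe sets above the floor. Over all probe sets the count leaving out 1 array ranged from 0 to 13, with the 13 when pmr5 replicate 2 was dropped. Dropping pmr5 replicate 3 gave 4, and dropping pmr5 replicate 1 or Col-0 replicate 3 gave 2. The count of members without overlap was 11. It was 15 (7.5%) after quantile normalization, 14 (7.0%) with array medians centred and 7 (7.0%) among the 100 highest members, against 7.93%, 8.57% and 6.44% of the 16186 probe sets above the floor. With 1 array left out it ranged from 15 (7.5%, against 10.1%) to 59 (29.5%, against 27.9%), the 59 without pmr5 replicate 2, and 3 arrays separate from 2 more easily by construction. The median within-genotype SD of 0.163 was 0.153 with the replicate block, 0.159 after quantile normalization, 0.174 with array medians centred, and 0.150 with arrays centred on the members' median, which was added after seeing the data. Leaving out 1 array gave 0.140 to 0.170. The cause of these shifts was not tested. The median difference of 0.02 ranged from -0.01 (without Col-0 replicate 3) to 0.04 with 1 array left out, was -0.02 with array medians centred and 0.0072 among the 100 highest. The replicate block changed no call of any member. With 3 arrays per genotype, a difference must exceed the spread of so few arrays to pass.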
